A study of Vachellia cornigera with 24 samples.

Results

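Extrafloral nectaries collected at noon were set against nectaries collected at 8 am, as 3 libraries against 3 out of the 24 libraries of the series, and 12264 of the 12650 genes in the table were compared. The nectaries came from the bullhorn acacia, Acacia cornigera, growing in the field in Mexico and inhabited by the ant Pseudomyrmex ferrugineus, and every replicate was a pool over several plants. The remaining libraries cover 9 am, 2 pm, 3 pm and 3 am, and plants whose ants had been removed, replaced or returned or whose nectaries had received gut contents. The noon libraries belong to the untreated time course. The 8 am libraries are also untreated but are titled as controls and stand beside the ant treatments, so the hour cannot be told apart from the series or day of sampling. No genotype, plant age, temperature or nectar secretion rate is given for either group.

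An extrafloral nectary is a gland outside the flower that secretes sugar solution, here as food for resident ants that defend the tree. Secretion draws on carbon metabolism, membrane transport, vesicle traffic and cell wall enzymes, and plant tissues in the open change the transcripts of these processes, of stress proteins and of hormone signals over the day. Genes of the circadian clock, of light harvesting and of sugar and starch metabolism are a well-known part of that daily change, and they were set aside here in favour of the rest of the transcriptome.

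Values are the authors' normalised counts, rounded to whole numbers, and they are comparable between libraries within a gene but not between genes, since no gene length is given. Each row carries the closest Arabidopsis thaliana locus and its description, and every name and role below is taken over from Arabidopsis. Related acacia genes may share a row, and the library kit does not keep strand, so a gene and an antisense partner cannot be told apart. A change is the log2 ratio of noon over 8 am on the log2(value + 1) scale, which understates the change of low genes, and it is given with its standard error. A gene is said to have risen or fallen at noon when its adjusted p in limma, with Benjamini-Hochberg adjustment over all 12264 genes, was under 0.05. These are whole glands, so fewer cells of a type and less RNA per cell cannot be told apart.

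The noon libraries summed to between 21502670 and 23560801 normalised counts and the 8 am libraries to between 24515250 and 26982064. Over 9693 genes with a mean of at least 200, the log2 values of 2 noon libraries differed with an SD of 0.125 to 0.192, those of 2 libraries at 8 am with an SD of 0.421 to 0.456, and those of a noon and an 8 am library with an SD of 0.986 to 1.10. Noon samples 1 and 3 were the closest pair, at 0.125. An alternative fit averaged these 2 to 1 library, and likewise 2 near-identical libraries of the ant removal treatment. Where it moves a count of a gene list by more than 1.5 times, the count is given beside it. The library labelled 3 pm sample 2 lay nearer to the noon libraries, with an SD of 0.269 to 0.327, than the 8 am libraries lay to each other, and it enters the comparison only through the shared estimate of the spread. The nectary markers in the table were detected in all 6 libraries and fell at noon. AT2G39060, a sugar transporter of the nodulin MtN3 family, had 2501, 2338 and 2510 at noon against 206764, 125151 and 191852 at 8 am. AT2G36190, cell wall invertase 4, had 17573, 15738 and 17786 at noon against 69379, 99011 and 88628 at 8 am. Of the markers of other cell types, 2 of 3 leaf mesophyll markers fell, 1 of 5 xylem, 1 of 3 phloem, 1 of 3 guard cell and 1 of 3 epidermis markers rose, and limma called 0 of 3 tested dividing cell markers, with 0 at an unadjusted p under 0.05. The mesophyll markers that fell were AT2G39730, rubisco activase, and AT5G54270, a light-harvesting protein, while AT1G67090, a rubisco small subunit, did not pass (log2 change -0.24). Light-harvesting and sugar genes, as the nectary markers are, belong to the kinds set aside here. The phloem call was lost without noon sample 2 or 8 am sample 1, and the xylem and epidermis calls without 8 am sample 3. The phloem and epidermis calls were also lost in the fit with both near-identical pairs of libraries averaged. Summed over their members the mesophyll markers stood at 77584 to 80505 at noon and 118371 to 160285 at 8 am, and the guard cell markers at 808 to 1045 at noon and 327 to 540 at 8 am. The xylem markers stood at 13198 to 14190 at noon, inside the 6078 to 15798 at 8 am. The phloem markers stood at 27965 to 28719 at noon and 29369 to 39289 at 8 am, the epidermis markers at 3423 to 3636 at noon and 2731 to 4317 at 8 am, and the dividing cell markers at 336 to 448 at noon and 383 to 840 at 8 am. No marker of these lists was at 0 throughout a group, and the part of cell composition in the results was not tested.

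Noon and 8 am nectaries differed in 4585 genes, 37.4% of those tested. Of these, 2415 rose at noon (19.7% of genes tested) and 2170 fell (17.7%). A change of at least 2-fold was reached by 2436 called genes (19.9% of genes tested), 1175 higher and 1261 lower, while at 4-fold the falls outnumbered the rises with 449 against 226. In 8054 genes (65.7%) the 3 noon values and the 3 values at 8 am did not overlap. With noon samples 1 and 3, and likewise 2 very similar libraries of the ant removal treatment, taken as 1 library each, limma called 3198 genes, all of them among the 4585. The share of rises among called genes was 52.7%, with a median change over all tested genes of 0.09, and it became 72.8% when every library was scaled to the same total, which moved that median to 0.32. The direction of a large group of genes with small changes therefore has to be read against the scaling, and for the lists described below whose balance turns, the counts with equal library totals are given.

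**Figure D1:**
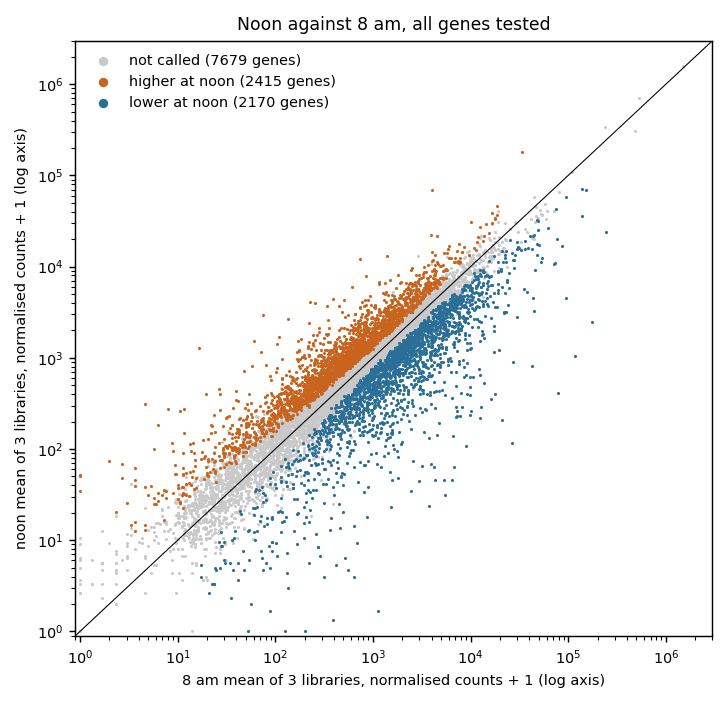
Each point is a gene, placed by its mean of 3 noon libraries (vertical) against its mean of 3 libraries at 8 am (horizontal), as normalised counts plus 1 on log axes. The 2415 genes higher at noon lie above the diagonal and the 2170 lower ones below it, and the falls reach further from the diagonal than the rises.

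The balance of rises and falls moved with the normalised count of the gene, which also depends on its unknown length. With the tested genes ranked by their mean count over all libraries and cut into 5 equal bins, 14.6% rose and 7.91% fell at noon in the bin of lowest counts, and 23.8% rose and 11.7% fell in the next. In the bin of highest counts 15.8% rose and 31.0% fell, and the median change was -0.17 there and 0.31 in the bin of lowest counts.

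The largest rises at noon outside the set-aside lists included transport, signalling and unknown proteins. AT1G12940, nitrate transporter2.5, a high-affinity nitrate carrier in Arabidopsis, had 2650, 3364 and 2938 at noon against 56, 124 and 44 at 8 am (log2 change 5.44 ± 0.94, adjusted p = 0.000319). Every noon library exceeded the highest 8 am library by more than an order of magnitude. AT2G15890, named after an arrest of the embryo in Arabidopsis mutants, had 1184, 1444 and 1206 at noon against 18, 18 and 11 at 8 am (log2 change 6.29 ± 1.03). AT1G11170, of the DUF707 family, had 68258, 69958 and 71207 at noon against 2748, 1357 and 8024 at 8 am (log2 change 4.49 ± 1.15). Its 8 am libraries spread widely and still lay far below noon. AT5G42900, cold regulated protein 27, had 1304, 1762 and 1489 at noon against 35, 61 and 82 at 8 am. It regulates light and cold responses in Arabidopsis and also acts on clock genes, though the clock list does not hold it. AT3G16360, HPT phosphotransmitter 4, of a family that relays phosphate in cytokinin signalling, had 236, 359 and 231 at noon against 10, 14 and 8 at 8 am. AT3G01200, PPDK regulatory protein 2, which controls an enzyme that makes phosphoenolpyruvate, had 244, 300 and 246 at noon against 12, 10 and 7 at 8 am. None of these ranges overlapped, which the choice of the genes required.

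The remaining 6 of the 12 largest rises included lipid transfer, regulatory and membrane proteins. AT1G21360, glycolipid transfer protein 2, which moves glycolipids between membranes, had 388, 403 and 401 at noon against 21, 14 and 20 at 8 am. AT1G14030, a Rubisco methyltransferase family protein, had 4234, 3865 and 4269 at noon against 270, 222 and 192 at 8 am. AT1G23420, a YABBY transcription factor of a family that shapes lateral organs, had 410, 502 and 436 at noon against 39, 16 and 21 at 8 am. The other 3 were AT1G73310, serine carboxypeptidase-like 4, AT3G16330, described as an Avr9/Cf-9 rapidly elicited protein, and AT1G68220, a membrane protein of the DUF1218 family, with log2 changes of 6.24, 5.46 and 4.30. AT1G68220 had the smallest spread of these, with 2525, 2735 and 2635 at noon against 136, 123 and 139 at 8 am (standard error 0.50, adjusted p = 1.21e-05).

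Of the 12 largest falls, 7 left the gene at 0 to 9 normalised counts in the noon libraries and 5 at 14 to 57. AT5G56030, heat shock protein 81-2, a cytosolic chaperone of the HSP90 class, had 2, 0 and 0 at noon against 911, 547 and 1902 at 8 am (log2 change -9.41 ± 1.34, adjusted p = 6.49e-05). AT3G24500, multiprotein bridging factor 1C, a coactivator of the heat response in Arabidopsis, had 0, 0 and 9 at noon against 657, 469 and 793 at 8 am (log2 change -8.18 ± 1.13). No temperature is recorded for either group. AT5G23060, the calcium sensing receptor, a thylakoid protein tied to stomatal closure in Arabidopsis, had 45, 39 and 52 at noon against 4352, 4011 and 4608 at 8 am (log2 change -6.55 ± 0.71). AT5G24580, of the heavy metal transport and detoxification family, had 44, 35 and 57 at noon against 7234, 7507 and 4615 at 8 am. AT4G21680, nitrate transporter 1.8, which takes nitrate back from the xylem in Arabidopsis, had 28, 51 and 21 at noon against 3359, 1374 and 2701 at 8 am (log2 change -6.17 ± 0.61). It thus ran opposite to nitrate transporter2.5.

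Further large falls touched lipids, light signalling and secretion. AT4G27030, fatty acid desaturase A, which acts on a plastid membrane lipid in Arabidopsis, had 5, 2 and 2 at noon against 451, 297 and 206 at 8 am. AT3G21150, B-box 32, a regulator of light responses, had 25, 49 and 56 at noon against 2524, 3159 and 3139 at 8 am, and AT3G21890, another B-box protein, had 1, 5 and 5 at noon against 489, 411 and 754 at 8 am. AT3G09520, exo70 family protein H4, a part of the exocyst that docks secretory vesicles, had 26, 14 and 26 at noon against 2513, 1162 and 897 at 8 am. AT2G40095, an alpha/beta hydrolase related protein, fell by 6.35 on the log2 scale, and AT2G46670, a CCT motif protein, by 6.30. The CCT motif protein resembles a clock regulator of Arabidopsis but is not in the clock list. AT5G52400, cytochrome P450 715A1, had 1, 0 and 0 at noon against 128, 107 and 942 at 8 am, and its adjusted p of 0.0110 became 0.0516 without 8 am sample 3.

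**Figure D2:**
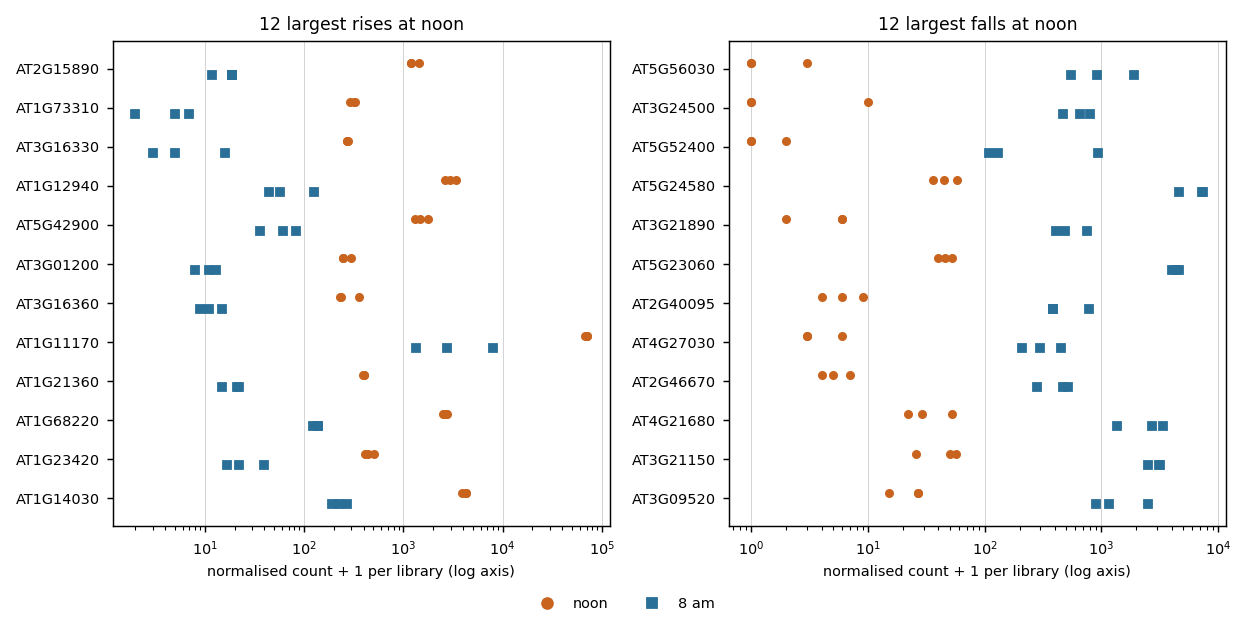
Normalised count plus 1 in each of the 3 noon libraries (circles) and the 3 libraries at 8 am (squares), on log axes, for the 12 genes with the largest rises and the 12 with the largest falls outside the clock, light-harvesting and sugar lists. No gene overlaps between the times, since the genes were chosen that way, and the noon points lie closer together than those of 8 am for most of the rises.

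The values of these 24 genes in the rest of the series are given as a description, since the choice of genes fixed their noon and 8 am levels. Of the 12 largest rises, 10 stood above every 8 am library in all 3 libraries of 3 pm and in the single 2 pm library, 7 in both 3 am libraries, and 3 in all libraries of 9 am. In the ant treatments 4 or 5 of the 12 did so. Nitrate transporter2.5 (AT1G12940) had 180 and 246 at 3 am, 3042, 551 and 82 at 9 am, 502 at 2 pm and 434, 3338 and 3120 at 3 pm, so the libraries labelled 9 am and 3 pm disagreed among themselves. Of the 12 largest falls, 11 stood below every 8 am library in the 2 pm library and in all 3 pm libraries, 4 in both 3 am libraries and 6 in all 9 am libraries. In the ant treatments 6 to 8 of the 12 falls did so, so for these genes the 8 am libraries also differed from the ant treatment libraries. Heat shock protein 81-2 (AT5G56030) had 1626 and 845 at 3 am, 79, 14 and 912 at 9 am, 32 at 2 pm and 120, 18 and 0 at 3 pm, and it had 30, 44 and 36 where ants had been removed. The high level of this chaperone was thus seen in the 3 am and 8 am libraries and in 9 am sample 3, not in the ant treatments. Nitrate transporter 1.8 (AT4G21680) behaved differently, with 2941, 1207 and 1273 after ant removal and 296 and 378 at 3 am.

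**Figure D3:**
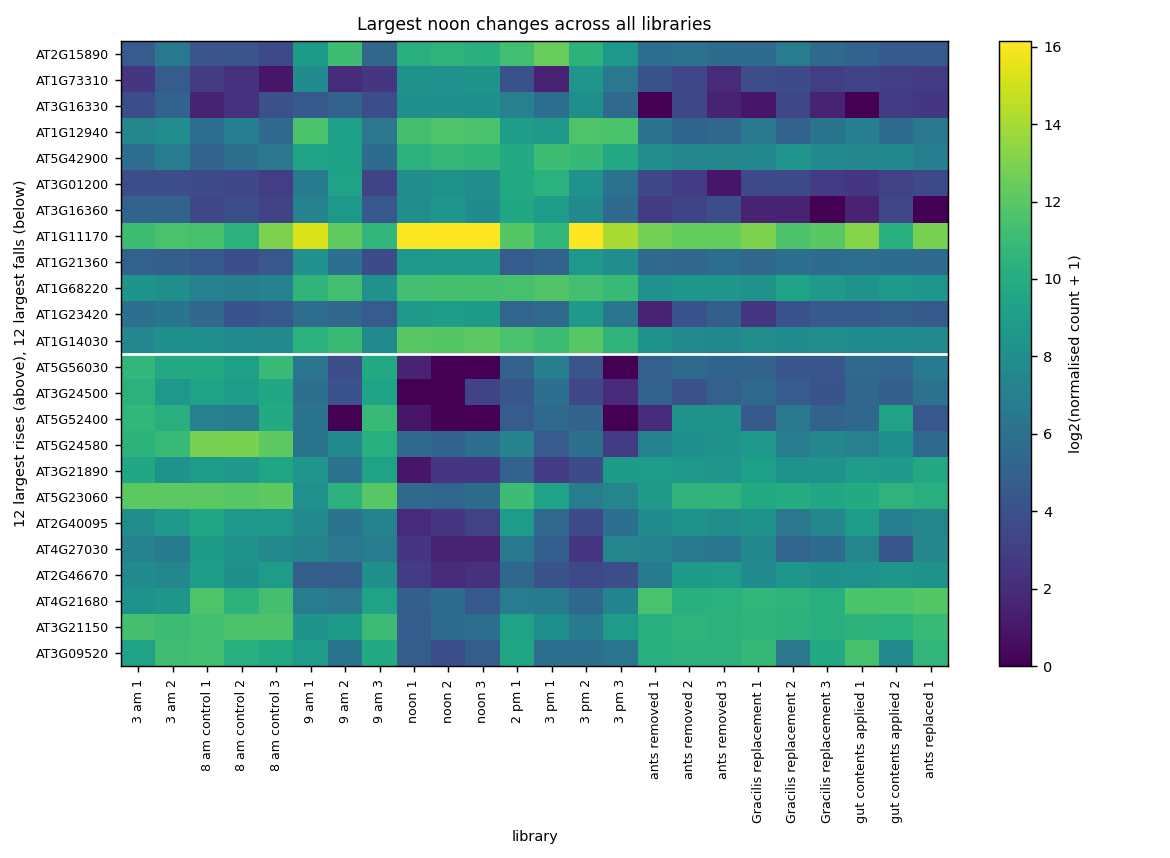
Level of the 12 largest rises (upper rows) and 12 largest falls (lower rows) in all 24 libraries as log2(normalised count + 1), with times of day in clock order from 3 am to 3 pm followed by the ant treatments. The noon columns and 3 pm sample 2 share a pattern, and the 3 libraries labelled 9 am differ from each other.

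Gene families were then described in turn, by how many tested members rose or fell at noon and by their median change, beside 19.7% rising, 17.7% falling and a median of 0.09 over all tested genes. Among lists with at least 15 tested members, defence receptors had the largest excess of rises. Of 57 tested genes for resistance proteins of the NBS-LRR type, the intracellular receptors that detect pathogen effectors, 29 rose (50.9%) and 0 fell, with a median log2 change of 0.97. By limma 28 did not pass. Groups that did not overlap were seen in 43 of the 57, beside 65.7% of all tested genes. AT4G23440, of the TIR-NBS class, had 1931, 1926 and 1964 at noon against 218, 376 and 240 at 8 am (log2 change 2.84 ± 0.50, adjusted p = 0.000383). AT5G43740, of the CC-NBS-LRR class, had 2546, 2471 and 2845 at noon against 560, 588 and 1077 at 8 am. AT4G14370, of the TIR-NBS-LRR class, had 337, 279 and 331 at noon against 101, 90 and 79 at 8 am. The 3 classes by domain thus each had members that rose, and the summed level of the family was 82998 to 85655 at noon and 47057 to 62127 at 8 am. The count was 22 with the near-identical libraries averaged and 40 with equal library totals, with 0 falls in each. The median member stood at 316 normalised counts at noon and 139 at 8 am, a range of counts where rises outnumbered falls among all genes too.

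Receptors at the cell surface moved the same way. Of 115 leucine-rich repeat and receptor kinases, which sense peptides, hormones and microbes, 35 rose (30.4%) and 10 fell (8.70%), with a median change of 0.46. AT2G37050 had 1157, 1198 and 1109 at noon against 333, 346 and 390 at 8 am (log2 change 1.70). Among the falls were AT2G01820 with 150, 141 and 130 at noon against 1110, 944 and 863 at 8 am, and AT1G74360 with 721, 697 and 681 at noon against 2609, 2194 and 2687 at 8 am. Members with large opposite changes therefore stood in the same family.

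Among secreted defence proteins falls outnumbered rises, while the summed levels at noon and 8 am overlapped. Of 28 chitinases, thaumatins and pathogenesis-related proteins, which attack microbial walls and are also found in nectars, 1 rose and 8 fell (28.6%), with a median change of -0.06. Their summed level was 1188142 to 1487840 at noon and 1098380 to 1232391 at 8 am. The median member stood at 512 normalised counts at noon and 729 at 8 am, so the sum rests on the highest members and says little of the rest. With equal library totals 2 rose and 5 fell and the median was 0.17. The falls numbered 4 without noon sample 2 and 4 without 8 am sample 2. AT3G54420, described as a homolog of a carrot chitinase, had 595, 249 and 488 at noon against 2384, 8175 and 4866 at 8 am (log2 change -3.45 ± 0.58). AT4G24180, thaumatin-like protein 1, had 1147, 1320 and 1067 at noon against 9401, 8342 and 3838 at 8 am. AT3G04720, pathogenesis-related 4, had 819, 660 and 729 at noon against 2546, 2257 and 1609 at 8 am (log2 change -1.52 ± 0.19). The 3 genes varied more between the 8 am pools than between the noon pools, and none overlapped. Of 2 MLP-like proteins 1 fell, AT1G70830, with 16981, 18924 and 17236 at noon against 43114, 47345 and 53785 at 8 am, and quantile normalisation gave it an adjusted p of 0.0833, against 0.0051 without it.

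Genes described as heat shock proteins or chaperones were lower at noon by count. The list holds proteins that fold and protect others, and also regulators of the heat response. Of its 155 tested members 47 fell (30.3%) and 23 rose (14.8%), with a median of -0.11. Equal library totals turned this to 39 rises and 37 falls. The rises numbered 14 without noon sample 2 or with the near-identical libraries averaged and 15 without 8 am sample 1. Their summed level was 226433 to 246215 at noon and 513179 to 927608 at 8 am. AT5G62020, heat shock transcription factor B2A, had 262, 189 and 237 at noon against 6811, 5280 and 9812 at 8 am (log2 change -4.95 ± 0.69, adjusted p = 5.2e-05). Named members of the DnaJ class fell less, AT2G42750 by 2.36 and AT4G09350 by 2.20 on the log2 scale. Secreted proteins fold in the endoplasmic reticulum. Of 9 genes listed for this folding and its regulation 4 fell, and all 9 had a change below 0. With the near-identical libraries averaged or with equal library totals 2 fell. AT5G61790, calnexin 1, had 5169, 5314 and 5496 at noon against 12603, 12827 and 13558 at 8 am, and AT5G28540, an HSP70 family chaperone, had 2710, 2368 and 2794 at noon against 8018, 8681 and 9668 at 8 am. The calls of the other 2, the bZIP factors AT1G42990 and AT3G10800, were lost without noon sample 1, without noon sample 3 and without 8 am sample 3, and AT3G10800 also lost its call without 8 am sample 1. Their log2 changes over these alternatives ran from -0.38 to -0.50 for AT1G42990, with adjusted p values of 0.0888, 0.0511 and 0.103 without noon sample 1, noon sample 3 and 8 am sample 3. For AT3G10800 the adjusted p values were 0.0584, 0.0930, 0.0709 and 0.0734 without noon sample 1, noon sample 3, 8 am sample 3 and 8 am sample 1.

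Redox and metal genes were mixed. Of 68 thioredoxins and glutaredoxins, which reduce disulfides, 16 fell and 6 rose, a balance that closed to 13 falls and 12 rises with equal library totals. Without noon sample 3, without 8 am sample 3 or with the near-identical libraries averaged the rises numbered 3. AT3G02730, thioredoxin F-type 1, a plastid regulator of carbon fixation enzymes, had 224, 210 and 178 at noon against 2291, 2313 and 2501 at 8 am (log2 change -3.54 ± 0.47). Among 33 peroxidases 3 rose and 3 fell, with equal library totals 6 rose and 3 fell, and 1 rose without any single noon library, without 8 am sample 1 or 3 or with the near-identical libraries averaged. AT1G07890, ascorbate peroxidase 1, which removes hydrogen peroxide from the cytosol, had 9264, 10008 and 9564 at noon against 21888, 26362 and 36167 at 8 am. Of 18 glutathione S-transferases 2 rose and 0 fell, and 1 rose without noon sample 2 or 3, without 8 am sample 3 or with the near-identical libraries averaged. AT5G01600, the iron storage protein listed as ferretin 1, had 13283, 14189 and 13192 at noon against 4662, 4920 and 3508 at 8 am (log2 change 1.65 ± 0.16, adjusted p = 2.93e-06). Among 10 genes of ferritins and iron homeostasis 4 rose and 1 fell, AT1G09240 for nicotianamine synthase 3, which makes a metal chelator, with 179, 229 and 185 at noon against 2297, 2019 and 980 at 8 am. The rises numbered 2 with the near-identical libraries averaged, without any single noon library and without 8 am sample 1. Of 29 late embryogenesis abundant proteins and dehydrins 4 rose and 6 fell, a balance that equal library totals turned to 7 and 3, and the falls numbered 3 without noon sample 1, 8 am sample 2 or 8 am sample 3 and 2 without noon sample 3 or with the near-identical libraries averaged.

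**Figure D4:**
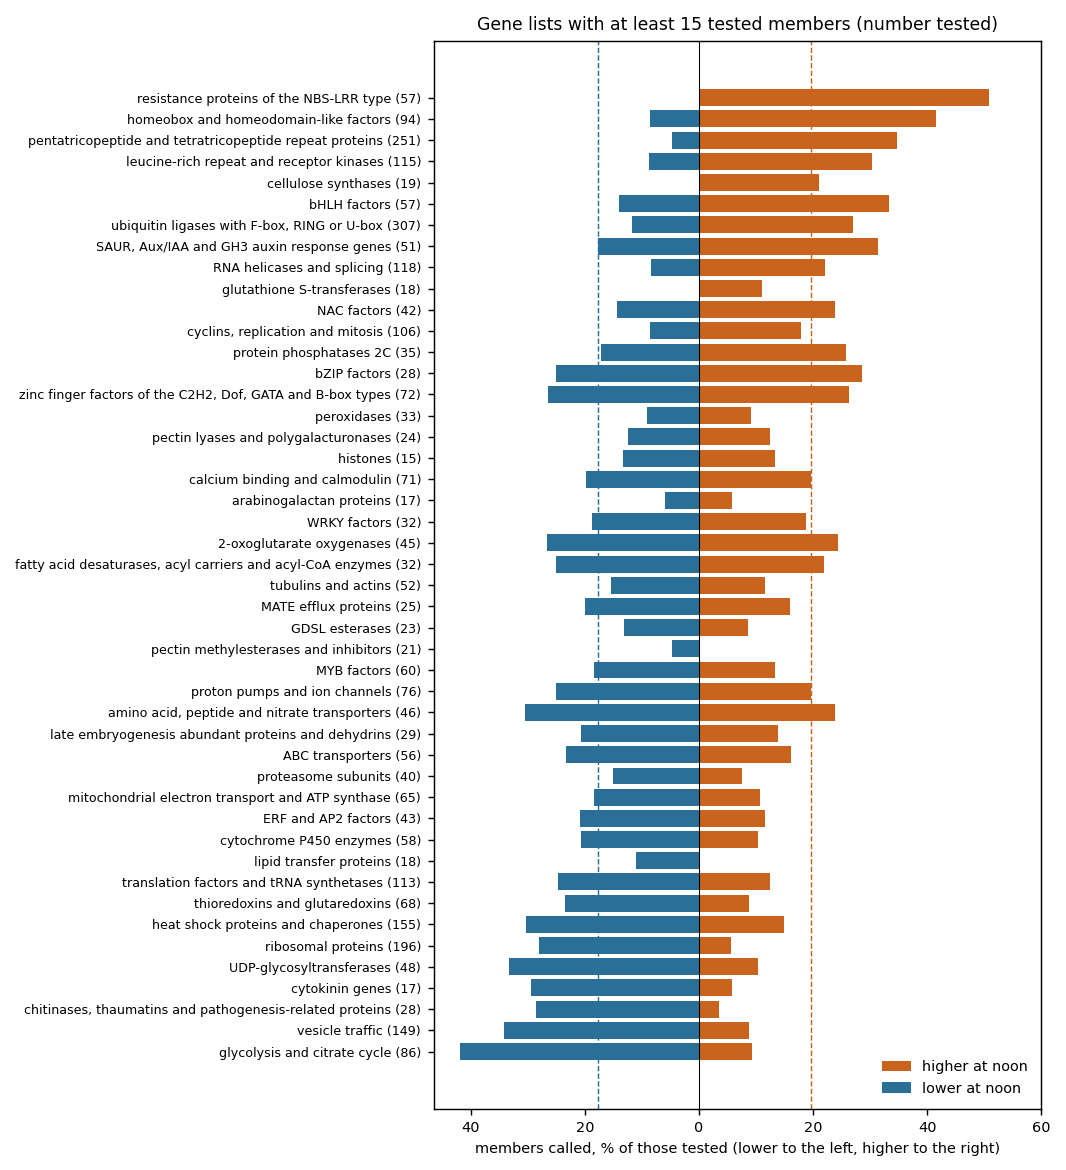
Share of tested members that rose (bars to the right) or fell (bars to the left) at noon for gene lists with at least 15 tested members, in percent, with the number tested in brackets. Dashed lines mark the shares over all tested genes, 19.7% rising and 17.7% falling, and the lists run from the resistance proteins at the top to glycolysis and the citrate cycle at the bottom.

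Hormone pathways differed in direction. Jasmonate is a wound hormone that also promotes secretion from extrafloral nectaries of other plants. Of 13 genes for its synthesis and repression, 5 fell (38.5%) and 0 rose, with a median change of -0.83. AT1G19180, jasmonate-zim-domain protein 1, a repressor that the hormone itself induces, had 4479, 4297 and 4757 at noon against 44973, 38473 and 46884 at 8 am (log2 change -3.26 ± 0.49, adjusted p = 9.91e-05). AT3G43440, jasmonate-zim-domain protein 11, had 3352, 3602 and 3337 at noon against 11469, 9148 and 13069 at 8 am. AT1G76680, 12-oxophytodienoate reductase 1, had 2066, 1814 and 1968 at noon against 14932, 12114 and 12627 at 8 am. In Arabidopsis a relative of this enzyme, not this one, is the main reductase of jasmonate synthesis. A P450 enzyme that inactivates the hormone in Arabidopsis, AT5G63450 of subfamily 94B, had 774, 874 and 797 at noon against 55553, 29110 and 44517 at 8 am (log2 change -5.67 ± 0.68). The repressors and this inactivating enzyme were thus lower together, and equal library totals left the 5 falls of the list and added 2 rises.

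The ethylene genes that passed were lower too. Of 9 genes for ethylene synthesis and signalling 4 fell and 0 rose, with a median of -1.48. AT2G19590, ACC oxidase 1, which makes ethylene, had 278, 155 and 272 at noon against 1247, 2385 and 1048 at 8 am (log2 change -2.68 ± 0.59). AT2G25490, EIN3-binding F box protein 1, which marks the main transcription factor of the pathway for degradation, had 4799, 4844 and 4701 at noon against 15955, 14032 and 17674 at 8 am. The related AT5G25350 lost its call without 8 am sample 1 (adjusted p = 0.0694). AT4G11280, ACC synthase 6, lost its call without 8 am sample 1 (adjusted p = 0.1003) and without noon samples 1, 2 or 3 (adjusted p = 0.0550, 0.0655 and 0.0609).

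Of 17 cytokinin genes, taken by description, 5 fell and 1 rose. The list does not hold HPT phosphotransmitter 4 (AT3G16360), described above, which rose by 4.57 on the log2 scale. The rise in the list was AT1G67710, response regulator 11, an activator of cytokinin targets in Arabidopsis, with 2934, 2934 and 2956 at noon against 1328, 1348 and 1541 at 8 am. AT3G57040 and AT1G19050, response regulators 9 and 7, which dampen the signal, had log2 changes of -1.18 ± 0.26 and -1.36 ± 0.36. AT4G27950, cytokinin response factor 4, had 643, 535 and 583 at noon against 3197, 2334 and 4949 at 8 am. Response regulator 11 thus ran opposite to response regulators 9 and 7. Of the 17 genes 16 had a change below 0, with a list median of -0.43.

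Auxin response genes included strong changes both ways. Of 51 SAUR, Aux/IAA, response factor and GH3 genes 16 rose (31.4%) and 9 fell (17.6%). AT4G27260, a GH3 family protein of enzymes that conjugate auxin to amino acids, had 112, 231 and 110 at noon against 4060, 3093 and 2965 at 8 am (log2 change -4.55 ± 0.63). AT1G59500, another GH3 protein, had 947, 1138 and 784 at noon against 8451, 7470 and 9124 at 8 am. AT5G37020, auxin response factor 8, had 1204, 1109 and 1098 at noon against 434, 448 and 397 at 8 am. For gibberellin, 2 of 9 genes fell and 1 rose, with a median of 0.01. The falls were AT5G51810, gibberellin 20 oxidase 2, a synthesis enzyme, and AT1G30040, gibberellin 2-oxidase, an inactivating enzyme, with log2 changes of -2.23 and -1.46. The rise was AT1G15550, gibberellin 3-oxidase 1 (log2 change 2.26 ± 0.80). It had 996, 1540 and 1072 at noon against 299, 148 and 334 at 8 am. Its call was lost when any 1 of the 6 libraries was left out or with the near-identical libraries averaged. Of 7 abscisic acid and drought genes limma called 0 (2 had an unadjusted p under 0.05) and the median was 0.27, whereas 3 rose with equal library totals. AT3G19270, a P450 that breaks down abscisic acid in Arabidopsis, had 717, 682 and 717 at noon against 6084, 4613 and 3568 at 8 am.

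Among transcription factors the genes described as homeobox or homeodomain-like were tilted to noon, with 39 of 94 members higher (41.5%) and 8 lower (8.51%). Leaving out 6 members that are also in the clock, light-harvesting or sugar lists, 39 of 88 rose and 6 fell. The homeodomain-like description also covers MYB-type factors and is not limited to homeobox genes. Of 29 genes described as homeodomain-like superfamily proteins 9 rose and 4 fell, and of 10 described as duplicated homeodomain-like 2 rose and 0 fell. AT1G14350 had 1161, 1153 and 1144 at noon against 176, 153 and 165 at 8 am (log2 change 2.80 ± 0.31), and AT1G69580 had 1975, 2270 and 2076 at noon against 267, 464 and 338 at 8 am. AT3G16350 ran the other way with 69, 79 and 46 at noon against 4025, 2879 and 2611 at 8 am (log2 change -5.60 ± 0.45). Of 57 bHLH factors 19 rose (33.3%) and 8 fell. AT4G29100 had 10055, 11106 and 10401 at noon against 3948, 3858 and 3086 at 8 am, while AT5G46760 had 1734, 1966 and 1695 at noon against 5906, 4599 and 6439 at 8 am. Of 42 NAC factors 10 rose and 6 fell, among them AT2G33480, NAC domain containing protein 41, with 20598, 23688 and 21114 at noon against 3648, 5427 and 4484 at 8 am, and AT4G17980, protein 71, with 725, 534 and 809 at noon against 3395, 3488 and 4270 at 8 am.

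The NF-Y factors, which bind CCAAT boxes as trimers, split by subunit among the named members. AT1G72830, subunit A3, had 5185, 5352 and 5403 at noon against 1341, 1290 and 1420 at 8 am (log2 change 1.98 ± 0.17, adjusted p = 1.57e-06). AT3G05690, subunit A2, had 1603, 1810 and 1569 at noon against 346, 186 and 414 at 8 am, and AT5G12840, subunit A1, rose by 1.10 on the log2 scale. AT3G48590, subunit C1, had 2185, 2133 and 2153 at noon against 4530, 4276 and 4989 at 8 am. Of all 14 NF-Y genes 4 rose and 1 fell.

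In the other factor classes the balance moved with the scaling. Among 32 WRKY factors, regulators of defence, 6 rose and 6 fell (9 and 4 with equal library totals, and 3 rose without 8 am sample 1), and AT2G24570, WRKY protein 17, had 2626, 2490 and 2512 at noon against 9455, 7738 and 8274 at 8 am. Among 72 zinc finger factors 19 rose and 19 fell (23 and 16 with equal library totals), with AT1G06040 of the B-box type at 684, 806 and 628 at noon against 7274, 6797 and 7398 at 8 am, and AT3G21270, DOF zinc finger protein 2, at 1392, 1454 and 1344 at noon against 338, 405 and 467 at 8 am. Of 28 bZIP factors 8 rose and 7 fell (11 and 3 with equal library totals; 3 fell without noon sample 1, noon sample 3 or 8 am sample 3 and 2 with the near-identical libraries averaged), and AT1G68640 had 762, 909 and 824 at noon against 98, 128 and 10 at 8 am. Of 43 ERF and AP2 factors 5 rose and 9 fell, with equal library totals 7 moved each way, and without noon sample 2 the counts were 3 and 5, and 5 fell with the near-identical libraries averaged. Of 60 MYB factors 8 rose and 11 fell, which equal library totals turned to 16 and 10, and 5 rose without any single noon library and 4 without 8 am sample 3 or with the near-identical libraries averaged.

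**Figure D5:**
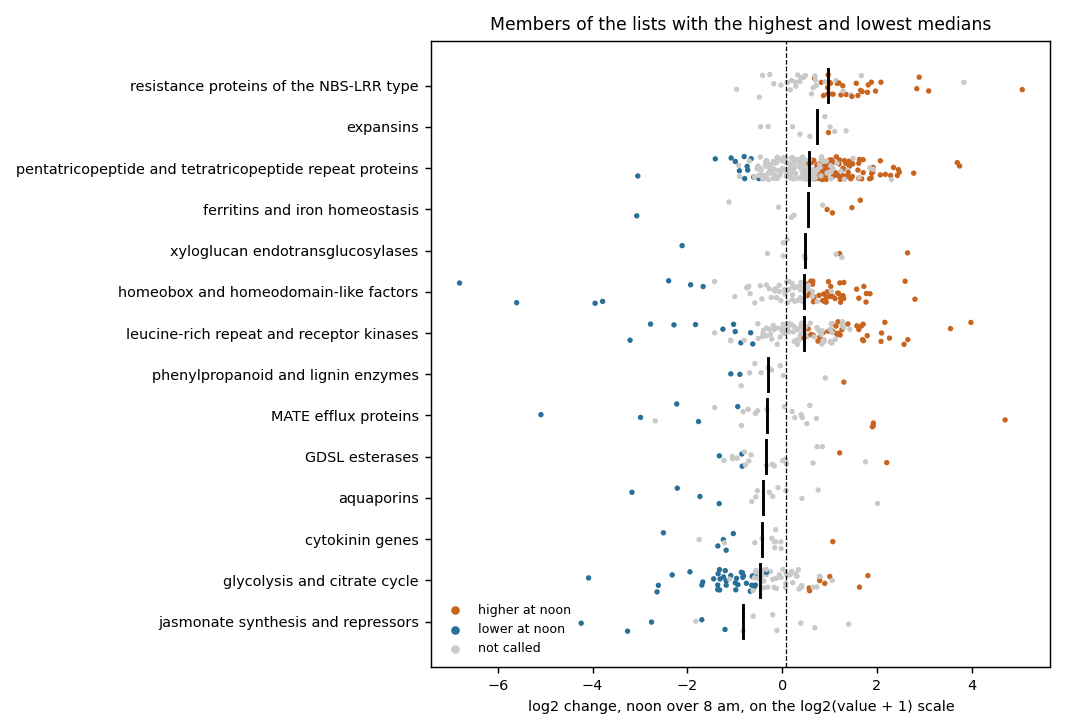
Log2 change, noon over 8 am, of every tested member of the 7 lists with the highest and the 7 with the lowest median among lists with at least 10 tested members, with the list median as a bar. Orange points rose, blue points fell and grey points did not pass, and the dashed line is the median of all tested genes at 0.09.

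Among lists with at least 15 tested members, central carbon metabolism had the largest excess of falls. Of 86 enzymes of glycolysis and the citrate cycle, which break sugars down for energy, 36 fell at noon (41.9%) and 8 rose (9.30%), with a median log2 change of -0.47. Their summed level was 240879 to 251917 at noon and 440185 to 458370 at 8 am. AT3G55440, triosephosphate isomerase, had 5743, 5737 and 5675 at noon against 33713, 33648 and 37810 at 8 am (log2 change -2.61 ± 0.29, adjusted p = 8.02e-06). AT1G53240, of the malate dehydrogenase family, had 4038, 3452 and 4029 at noon against 20863, 22007 and 29703 at 8 am. AT3G12780, phosphoglycerate kinase 1, had 1802, 1801 and 1853 at noon against 4379, 5679 and 4085 at 8 am. In Arabidopsis this form sits in the plastid and also serves carbon fixation. The 36 falls were 30 with the near-identical libraries averaged and 28 with equal library totals, against 6 and 11 rises, and without 8 am sample 3 the rises numbered 5.

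In mitochondria, 7 of 65 nuclear genes for electron transport and ATP synthase rose and 12 fell, and equal library totals turned this to 15 rises and 7 falls. The rises numbered 3 without any single noon library or with the near-identical libraries averaged and 4 without 8 am sample 1 or 2. AT1G22840, cytochrome c-1, had 1041, 873 and 1064 at noon against 4215, 4408 and 5845 at 8 am (log2 change -2.27 ± 0.27), and AT5G13430, the iron-sulfur subunit of the cytochrome c reductase, had 2114, 2233 and 2273 at noon against 5842, 6087 and 7598 at 8 am. Of the genes in the organelle genomes, limma called 0 of 36 tested plastid genes in either direction, with 0 at an unadjusted p under 0.05, and of 27 mitochondrial genes 2 rose and 2 fell.

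Nitrate-reducing enzymes fell, as did nitrate transporter 1.8. AT1G77760, nitrate reductase 1, had 8194, 9233 and 7807 at noon against 24421, 20523 and 28706 at 8 am (log2 change -1.54 ± 0.22), and AT2G15620, nitrite reductase 1, had 1066, 1153 and 1159 at noon against 4034, 3366 and 3088 at 8 am. AT5G53460, NADH-dependent glutamate synthase 1, which makes glutamate from glutamine, rose with 13155, 11269 and 13153 at noon against 6841, 6415 and 5590 at 8 am. Over the 7 genes of the list 3 fell and 1 rose. Among 46 amino acid, peptide and nitrate transporters 11 rose and 14 fell, which equal library totals turned to 14 and 11. AT5G23810, amino acid permease 7, had 168, 179 and 232 at noon against 4645, 3627 and 5884 at 8 am, and AT1G32450, nitrate transporter 1.5, which loads nitrate into the xylem in Arabidopsis roots, had 346, 256 and 337 at noon against 3373, 3309 and 5229 at 8 am.

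Water channels were lower at noon where they passed. Of 14 aquaporins 4 fell and 0 rose, with a median change of -0.40. AT3G54820, plasma membrane intrinsic protein 2;5, had 11757, 11034 and 11343 at noon against 49298, 56347 and 52912 at 8 am (log2 change -2.21 ± 0.39, adjusted p = 0.000428). AT2G36830, gamma tonoplast intrinsic protein, of the vacuole membrane, had 5583, 4687 and 5243 at noon against 12585, 20981 and 19214 at 8 am. AT1G80760, NOD26-like intrinsic protein 6;1, a boron channel in Arabidopsis, had 434, 306 and 451 at noon against 3863, 3173 and 3589 at 8 am. The summed level of the family was 53194 to 55026 at noon and 116105 to 136528 at 8 am, and equal library totals left the 4 falls and added 2 rises.

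Other transporters moved both ways. Of 76 proton pumps and ion channels 15 rose and 19 fell, which equal library totals turned to 22 and 16. The rises numbered 8, 8 and 7 without noon samples 1, 2 and 3, 9 and 8 without 8 am samples 1 and 3, and 7 with the near-identical libraries averaged. AT3G56290, listed as a potassium transporter, had 192, 247 and 261 at noon against 2614, 2671 and 2783 at 8 am, and AT3G58730, subunit D of the vacuolar proton pump, had 1229, 1454 and 1366 at noon against 2899, 3250 and 3387 at 8 am. Of 56 ABC transporters 9 rose and 13 fell, turned to 14 and 12 by equal library totals, and AT1G04120, multidrug resistance-associated protein 5, had 1426, 1358 and 1545 at noon against 10662, 8006 and 11131 at 8 am. Of 25 MATE efflux proteins, which export small molecules, 4 rose and 5 fell, which equal library totals turned to 6 and 5. AT4G23030 had 71, 74 and 73 at noon against 3340, 2586 and 1831 at 8 am (log2 change -5.09 ± 0.43), while AT1G71870 had 42, 58 and 41 at noon against 5, 0 and 0 at 8 am.

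Secretion itself draws on vesicle traffic, and there the count and the sum disagreed. Of 149 genes for coats, tethers, SNARE proteins and small GTPases 51 fell (34.2%) and 13 rose (8.72%), with a median change of -0.10. The summed level of the list, however, was 397206 to 483834 at noon and 330376 to 377463 at 8 am. Such a sum weighs the genes with the highest counts most, and the median member stood at 987 normalised counts at noon and 1036 at 8 am. With equal library totals 36 rose and 34 fell. AT4G18800, RAB GTPase homolog A1D, had 207, 231 and 256 at noon against 9117, 6388 and 8021 at 8 am (log2 change -5.07 ± 0.61). AT1G62020, the coatomer alpha subunit, had 824, 823 and 829 at noon against 1865, 1669 and 1816 at 8 am, and AT3G09740, syntaxin of plants 71, had 2149, 2420 and 2339 at noon against 5339, 4674 and 5496 at 8 am. AT3G29400, exo70 family protein E1, ran opposite to its relative H4 with 1324, 1606 and 1393 at noon against 497, 584 and 652 at 8 am.

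Protein synthesis genes fell more often than they rose. Of 196 ribosomal proteins 55 fell (28.1%) and 11 rose (5.61%), with a median of -0.27, and with equal library totals 30 fell and 22 rose. The falls numbered 33, 35 and 35 without noon samples 1, 2 and 3 and 27 without 8 am sample 3, and the rises 7, 6 and 7 without the noon samples and 5 and 6 without 8 am samples 1 and 3. With the near-identical libraries averaged 30 fell and 6 rose. AT3G09630, of the ribosomal protein L4/L1 family, had 5148, 5160 and 5123 at noon against 11801, 11832 and 14772 at 8 am (log2 change -1.31 ± 0.24). AT1G58380, of the S5 family, had 4010, 4171 and 4116 at noon against 10248, 10051 and 12786 at 8 am. The summed level of the list was 313134 to 323307 at noon and 461921 to 573612 at 8 am. Of 113 translation factors and tRNA synthetases 28 fell and 14 rose, which equal library totals turned to 19 and 25. The rises numbered 7, 5 and 6 without noon samples 1, 2 and 3 9, 9 and 8 without 8 am samples 1, 2 and 3, and 6 with the near-identical libraries averaged.

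Pentatricopeptide and tetratricopeptide repeat proteins were tilted the other way. Of 251 such proteins 87 rose (34.7%) and 12 fell (4.78%), with a median change of 0.57. Pentatricopeptide proteins are known for editing and splicing organelle transcripts. The members were sorted by description alone, which may not keep the repeat types apart. Of 81 genes described as pentatricopeptide superfamily proteins 29 rose and 5 fell. Of 134 described as tetratricopeptide-like 42 rose and 7 fell. AT1G12620, a pentatricopeptide protein, had 2725, 2830 and 2637 at noon against 984, 1025 and 995 at 8 am (log2 change 1.45 ± 0.22). AT5G37590, a tetratricopeptide protein, had 2019, 2073 and 1978 at noon against 644, 542 and 723 at 8 am. The median member stood at 336 normalised counts at noon and 253 at 8 am. The rises numbered 54 with the near-identical libraries averaged, 53 without noon sample 2, 57 without 8 am sample 2 and 140 with equal library totals, and the falls 7 with those libraries averaged and 5 with equal totals. Of 118 RNA helicases and splicing proteins 26 rose and 10 fell. The rises numbered 15, 16 and 15 without noon samples 1, 2 and 3 and 15 without 8 am sample 2, and the falls 6 without noon sample 1, noon sample 3 or 8 am sample 3. With the near-identical libraries averaged 15 rose and 6 fell, and with equal library totals 51 rose and 5 fell. AT3G02060, a DEAD/DEAH box helicase, had 741, 791 and 744 at noon against 269, 205 and 274 at 8 am.

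Protein removal was mixed by class. Of 307 ubiquitin ligases with F-box, RING or U-box domains, which mark proteins for degradation, 83 rose (27.0%) and 36 fell (11.7%), and 53 rose without noon sample 2 and 138 with equal library totals. AT1G51550, a Kelch repeat F-box protein, had 1400, 1609 and 1424 at noon against 365, 341 and 374 at 8 am (log2 change 2.03 ± 0.23), and AT5G65500, a U-box protein kinase, had 919, 1086 and 915 at noon against 218, 110 and 168 at 8 am. AT2G37150, a RING/U-box protein, fell with 3636, 3789 and 3762 at noon against 13607, 9823 and 11769 at 8 am. Of 40 proteasome subunits 3 rose and 6 fell, with the largest fall 1.02 on the log2 scale in AT3G13330, proteasome activating protein 200.

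Calcium-binding proteins and phosphatases included members that moved each way. Of 71 calcium-binding proteins 14 rose and 14 fell, which equal library totals turned to 22 and 8, and 9 fell without noon sample 3, without 8 am sample 3 or with the near-identical libraries averaged. AT1G24620, an EF hand protein, had 841, 746 and 795 at noon against 7382, 6807 and 11706 at 8 am, and AT1G18210, another, had 171, 165 and 151 at noon against 1533, 1400 and 1722 at 8 am. AT3G51850, calcium-dependent protein kinase 13, had 2240, 2442 and 2219 at noon against 889, 1195 and 958 at 8 am. Of 35 protein phosphatases 2C 9 rose and 6 fell (12 and 6 with equal library totals), while the 4 with the smallest adjusted p all fell. AT3G05640 was the lowest of these with 699, 561 and 640 at noon against 4240, 3334 and 3829 at 8 am.

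Cell wall genes were mixed. Of 19 cellulose synthases and related enzymes 4 rose (21.1%) and 0 fell, and 15 did not pass. AT5G05170, a cellulose synthase, had 10329, 11211 and 10048 at noon against 4592, 6681 and 4440 at 8 am (log2 change 1.03 ± 0.27), and AT4G24000, cellulose synthase like G2, had 156, 156 and 139 at noon against 31, 27 and 39 at 8 am. AT2G01850, endoxyloglucan transferase A3, which remodels wall hemicellulose, had 6370, 7179 and 6404 at noon against 3053, 3071 and 2510 at 8 am. AT3G03220, expansin A13, was the 1 of 10 wall-loosening expansins that rose, with 786, 737 and 790 at noon against 332, 428 and 421 at 8 am. Of 7 laccases, which polymerise lignin, 3 rose and 1 fell, AT5G05390 for laccase 12, with 2518, 1660 and 2270 at noon against 6553, 9462 and 7948 at 8 am. With the near-identical libraries averaged 1 laccase rose. All 3 laccase rises lost their calls without 8 am sample 3, at adjusted p values of 0.0647 for AT2G38080, 0.111 for AT5G03260 and 0.125 for AT5G48100. The last of these also lost it without 8 am sample 1 (0.119) and without noon samples 1, 2 or 3 (0.0968, 0.0881 and 0.0951), and AT5G03260 without noon samples 1, 2 or 3 (0.0503, 0.0642 and 0.0536). Of 24 pectin lyases and polygalacturonases 3 rose and 3 fell, and the rises numbered 1, 0 and 0 without noon samples 1, 2 and 3 and 0 without 8 am sample 1 or 3 or with the near-identical libraries averaged. With equal library totals 6 rose and 2 fell.

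Lipid genes included strong falls. AT1G62640, 3-ketoacyl-acyl carrier protein synthase III, which starts fatty acid synthesis in plastids, had 489, 493 and 489 at noon against 8063, 6186 and 7086 at 8 am (log2 change -3.85 ± 0.49, adjusted p = 2.28e-05). AT4G25050, acyl carrier protein 4, had 1289, 1240 and 1323 at noon against 2638, 3844 and 3550 at 8 am. Of 32 genes for desaturases, acyl carriers and acyl-CoA enzymes 7 rose and 8 fell, which equal library totals turned to 11 and 7. The rises numbered 3 with the near-identical libraries averaged, 2 without noon sample 2 or 8 am sample 1 and 4 without noon sample 3, 8 am sample 2 or 8 am sample 3. Of 7 3-ketoacyl-CoA synthases, which elongate fatty acids for waxes, 2 fell and 0 rose. AT2G26640, synthase 11, had 1665, 1504 and 1681 at noon against 5660, 5479 and 5833 at 8 am, and AT1G01120, synthase 1, had 86, 46 and 83 at noon against 414, 371 and 497 at 8 am. Of 18 lipid transfer proteins 2 fell and 0 rose.

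Shikimate genes fell more often than they rose. Of 8 shikimate pathway genes, which lead to the aromatic amino acids, 4 fell and 1 rose, with a median of -0.58, and the rise was not called when any 1 of the 6 libraries was left out or with the near-identical libraries averaged. AT1G48850, chorismate synthase, the last enzyme of the pathway, had 2769, 2749 and 2685 at noon against 7517, 7831 and 7596 at 8 am (log2 change -1.48 ± 0.14, adjusted p = 2.3e-06). AT4G39980, the DAHP synthase 1 of the first step, had 1114, 1120 and 1007 at noon against 3694, 3853 and 5343 at 8 am. Further along, 2 of 13 phenylpropanoid and lignin genes fell and 1 rose, which equal library totals turned to 1 and 2, and 1 fell without noon sample 1, noon sample 3 or 8 am sample 2 or with the near-identical libraries averaged. AT4G36220, ferulic acid 5-hydroxylase 1, had 6116, 6490 and 6398 at noon against 12796, 12844 and 14734 at 8 am, and AT3G19450, of the alcohol dehydrogenase family of lignin synthesis, had 13385, 15117 and 13809 at noon against 4833, 6022 and 6408 at 8 am. Neighbouring steps thus changed in opposite directions.

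Enzymes that modify small molecules moved both ways. Of 48 UDP-glycosyltransferases, which attach sugars to hormones and flavonoids, 16 fell (33.3%) and 5 rose (10.4%), and 3 rose without 8 am sample 1. With equal library totals 11 fell and 8 rose. AT4G34138, UDP-glucosyl transferase 73B1, had 467, 412 and 438 at noon against 3274, 2719 and 3880 at 8 am (log2 change -2.89 ± 0.42). Of 58 cytochrome P450 enzymes 12 fell (20.7%) and 6 rose, which equal library totals turned to 8 and 10. Of 45 2-oxoglutarate oxygenases 11 rose and 12 fell, which equal library totals turned to 14 and 11. The rises numbered 5 with the near-identical libraries averaged, 6 without any single noon library or 8 am sample 2 and 7 without 8 am sample 3. AT2G36690 had 287, 310 and 286 at noon against 2547, 2097 and 1999 at 8 am. Of 8 terpene synthases 1 rose and 1 fell, AT3G25820, a cineole synthase-like gene, with 535, 472 and 541 at noon against 2693, 2023 and 3465 at 8 am.

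Cell division genes had a share of rises near that of all tested genes. Of 106 genes for cyclins, replication and mitosis 19 rose (17.9%) and 9 fell (8.49%), with equal library totals 30 rose and 3 fell, and the falls numbered 3, 4 and 4 without noon samples 1, 2 and 3 2 without 8 am sample 3 and 3 with the near-identical libraries averaged. AT1G10690, a cyclin-dependent kinase inhibitor, which slows the cell cycle, had 952, 925 and 955 at noon against 202, 326 and 163 at 8 am, and AT1G19530, listed as a DNA polymerase epsilon subunit, had 7342, 8250 and 7793 at noon against 857, 1039 and 679 at 8 am. Of 15 histones 2 rose and 2 fell, which equal library totals turned to 4 and 1, and 1 fell without any single noon library or with the near-identical libraries averaged and 0 without 8 am sample 3. AT2G18050, histone H1-3, a linker histone induced by stress in Arabidopsis, had 28536, 34513 and 28661 at noon against 7726, 8173 and 14720 at 8 am (log2 change 1.64 ± 0.33). Of 52 tubulin and actin genes 6 rose and 8 fell, which equal library totals turned to 14 and 5.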

How the data were processed

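Per the labels' protocols, RNA of pooled nectaries was sequenced in paired-end mode. The deposited values are a score, named normalized counts per the file headers, which the authors rounded to whole numbers; the sources used here do not give scaling, aligner, assembly or raw depth, so no counting error or detection floor is given. Nothing beyond the pooling of different plants is said of the replicates.

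Values were tested as log2(value + 1), pseudocount 1, for genes averaging 10 or more across the 24 libraries (386 left out). The model (limma 3.58.1 in R 4.3.3, mean-variance trend, 14 residual and 3.657 prior degrees of freedom) held 24 libraries and 10 groups, and was tested on simulated data. Tests were 2-sided with Benjamini-Hochberg adjustment at 0.05. An exact permutation of 3 against 3 libraries cannot go below p = 0.1 and was not used.

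Genes named are the 12 largest rises and 12 largest falls (called, at least 2-fold, no overlap, mean of at least 200 in the higher group, 1 per description, outside the clock, light-harvesting and sugar lists) and up to 4 called members of each of the other lists with the smallest adjusted p. The 75 lists were taken from descriptions or loci, may overlap, and were not tested as lists. Members, lists and rules were chosen with earlier results of these data known. The labels do not say that equal sample numbers pair noon with 8 am libraries, and the main model took none as paired.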

Additional observations from a re-analysis of the deposited data

How the results depend on the processing

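The 4585 calls became 6994 in a fit of the 6 libraries alone, 7466 with array quality weights and 2436 with a 2-fold minimum. Leaving out 1 library gave 3400 to 3826 calls. The other alternatives gave 3198 (near-identical pairs as 1 library each) to 6397 (without the 9 am and 3 pm libraries), with 4721 under median-of-ratios scaling, 5053 under quantile normalisation and 5538 with equal totals, where 4030 were higher and 1508 lower. Under a replicate block by sample number 4617 genes were called in all libraries and 6343 in the 6 alone. Same-number deviations correlated at -0.06, -0.27 and -0.14. With 3 libraries per group, and noon samples 1 and 3 nearly identical, these values cannot decide whether samples were paired. Of 256 named genes, 22 lost their call with the pairs averaged, 8 with equal totals, 8 under quantile normalisation and 7 to 17 without a single library. The histone AT4G40040 reversed under quantile normalisation, with a log2 change of 0.12 (adjusted p = 0.618); the cause was not tested. A filter at a mean of 100 dropped 13 named genes. The raw depth is unknown and limits the low values.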

Other observations

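Families not listed above were grouped by identical description, with at least 10 tested members, after their values had been seen. All 7 called members of 22 HXXXD-type acyl-transferases, which add acyl groups to phenolics and other metabolites, were lower at noon, with a median log2 change of -0.76 over the family. Nucleotide-sugar transporters, which feed the Golgi apparatus for wall polymers, had 5 of 10 members lower and 0 higher, and haloacid dehalogenase-like hydrolases 10 of 23 lower and 2 higher. SNARE-like proteins had 5 of 12 lower and 0 higher. In the other direction, ankyrin repeat proteins had 9 of 32 members higher at noon and 1 lower, hydroxyproline-rich glycoproteins 11 of 37 higher and 2 lower, and ARM repeat proteins 25 of 82 higher and 6 lower. DHHC-type zinc finger proteins, which attach palmitate to membrane proteins, had 5 of 12 higher and 0 lower. Genes described only as hypothetical proteins had 56 of 271 higher (20.7%) and 36 lower (13.3%), near the shares of all tested genes.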
